A study of Mus musculus with 26 samples.

Results

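Zfp36, Zfp36l1 and Zfp36l2 are the members of the Zfp36 family of RNA-binding proteins measured here, 3 of the 18193 genes named on the array, and 6 of its 45101 probe sets are annotated to 1 of them alone. Their transcripts were followed in 26 single mouse retinal cells, 13 labelled WT and 13 labelled N1-CKO. All cells came from mice on a C57BL/6 background that were homozygous for a floxed Notch1 allele, so the WT cells carried the floxed allele as well. WT cells received CAG:GFP by electroporation at postnatal day 0, and N1-CKO cells received CAG:Cre with CALNL-GFP, a reporter that Cre turns on. GFP-positive cells were picked from dissociated retinas at postnatal day 3, and the cDNA of each was amplified from oligo dT primers and hybridised to 1 array. CAG is a broadly active promoter, so neither Cre nor GFP was limited to 1 retinal cell type, and the labels do not say which animal a cell came from. Each group therefore stands as 1 sample, no test was made, and SDs and intervals describe the spread over cells. The genes were chosen by their signals and detection and by their link to progenitor and cell cycle genes in these same cells, so their group differences and those links are a description.

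Zfp36 family proteins bind AU-rich elements in the 3' ends of mRNAs through a pair of CCCH zinc fingers and recruit the CCR4-NOT deadenylase, which removes the poly-A tail and exposes the mRNA to decay. Zfp36, also called tristetraprolin, is an immediate early gene best known for limiting cytokine mRNAs in activated immune cells. Zfp36l1 and Zfp36l2 are known from developing tissues, lymphocytes and germ cells, where they bind mRNAs of growth and cell cycle regulators. In the early postnatal retina, dividing progenitors give rise to rod photoreceptors, bipolar and amacrine cells and Müller glia, and Notch1 signalling keeps progenitors from differentiating early.

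The promoters of Zfp36l1 and Zfp36 are shown because Zfp36l1 varied with cell cycle genes across cells and Zfp36 did not reach detection. Each is the 250 bases before the gene's start in RefSeq (GRCm38.p6), read 5' to 3' on the gene's strand, with motif matches in capitals.
Zfp36l1, chr12:80113014-80113263, minus strand: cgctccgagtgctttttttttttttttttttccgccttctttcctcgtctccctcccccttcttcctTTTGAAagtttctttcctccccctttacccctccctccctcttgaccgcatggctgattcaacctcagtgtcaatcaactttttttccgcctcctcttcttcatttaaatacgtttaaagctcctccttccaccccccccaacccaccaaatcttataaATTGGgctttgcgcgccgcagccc
Zfp36, chr7:28379229-28379478, minus strand: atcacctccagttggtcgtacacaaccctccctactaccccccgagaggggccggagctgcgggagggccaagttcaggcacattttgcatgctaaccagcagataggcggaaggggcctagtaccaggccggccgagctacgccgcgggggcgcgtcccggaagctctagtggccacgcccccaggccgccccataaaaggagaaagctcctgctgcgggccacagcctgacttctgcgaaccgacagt
Both strands were searched for TGGGAA, the core that Rbpj (the DNA-binding partner of cleaved Notch) reads, for TTTGAA, the cell cycle genes homology region common at mitotic genes, and for CCAAT, the NF-Y box. The Zfp36l1 promoter held TTTGAA from -183 to -178 and, on the opposite strand (so that its reverse complement is in capitals), CCAAT from -24 to -20. These matches did not overlap each other. None of the 3 motifs occurred in the Zfp36 window. TTTGAA occurred in 16.0% of 32851 promoter windows of the same length, CCAAT in 33.8% and TGGGAA in 21.6%. Among the cell cycle genes used below, TTTGAA occurred for 9 of 19 genes of the G2/M list with a promoter entry and for 1 of 18 genes of the G1/S list, against 18.3% of all genes. CCAAT occurred for 16 of the 19 and 11 of the 18, against 37.5% of all genes. GC content was 48.4% for Zfp36l1 and 64.8% for Zfp36.

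Detection in a cell meant a signal at or above the 90th percentile of its own array, a rule under which each cell has 4504 detected probe sets. Each gene is represented by its brightest probe set, and means are of log2 signal after values under 25.02 (log2 of 4.65) were raised to that value. Signals of different probe sets cannot be ranked against each other, and detection, which is set by signal, depends on the probe set as well. The 3 paralogs are therefore compared by cells detected and by difference only, and neither ranks their transcript levels. The deposited signals carry 1 strong array property: the 18S ribosomal RNA control was at most 2059 in 16 cells and at least 12106 in the other 10. The high set held 5 cells of each group (WT cells 8 to 12 and N1-CKO cells 3, 8, 9, 10 and 11), and the low set held 8 of each. The 3' to 5' ratio of the Gapdh control, which rises as RNA or cDNA is truncated, reached 3.26 in WT and 245.4 in N1-CKO cells, and exceeded 3 in WT cells 3 and 7 and in N1-CKO cells 4, 5, 6, 12 and 13. Pairs of cells correlated at a median r of 0.45 over all probe sets, from 0.20 to 0.64, and 0 of 325 pairs were identical.

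By brightest probe set, Zfp36l1 was detected in more cells than the other members and differed most between the groups. Its probe set 1450644_at was detected in 11 of 13 WT cells (84.6%, exact 95% interval 54.6 to 98.1) but only 4 of 13 N1-CKO cells (30.8%, 9.09 to 61.4). In WT cells its signal ran from 0.62 through a median of 9397 to 19542, and in N1-CKO cells from 2.13 through a median of 148 to 11714. The WT cells were nearly all bright: 11 lay between 3720 and 19542, cell 9 was at 371, and cell 7 was below 1. The N1-CKO cells split, with cells 1, 4, 2 and 11 at 11714, 7823, 3666 and 1657 and the other 9 at 752 or less. The groups overlapped, since the brightest N1-CKO cell exceeded the WT median.

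Mean log2 signal of Zfp36l1 was 12.23 ± 2.74 in WT cells and 8.14 ± 3.21 in N1-CKO cells (SD over 13 cells each), a difference of -4.10. Among all 8280 genes detected in at least 2 cells, 6.92% were lower by 2 or more on the log2 scale and 4.75% were higher by 2 or more, and their median difference was -0.04. Of the 3 family genes, Zfp36l1 and Zfp36l2 were past -2, and Zfp36l1 alone was detected in at least 5 fewer N1-CKO than WT cells, as were 3.3% of the 8280 genes. Because the genes were chosen from this contrast, nothing is read from those counts. Where Zfp36l1 was detected, its mean log2 signal was 13.26 ± 0.87 in the 11 WT cells and 12.25 ± 1.25 in the 4 N1-CKO cells. Most of the group difference thus lay in the number of cells with a bright signal.

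The Zfp36l1 difference was -4.09 among cells of the high 18S set, where it was detected in 4 of 5 WT and 1 of 5 N1-CKO cells. In the low 18S set it was -4.10, with detection in 7 of 8 WT and 3 of 8 N1-CKO cells. With the Gapdh ratio held to 3 or less (11 WT and 8 N1-CKO cells) it was -4.09, with detection in 10 and 3 cells. The cells just outside the detection rule were WT cell 9, at the 88.2th percentile of its array, and N1-CKO cell 3, at the 87.6th.

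A second Zfp36l1 probe set, 1422528_a_at, was dim. It was detected in WT cell 12 alone, at 2614, and in 0 N1-CKO cells, with mean log2 signals of 7.49 ± 1.99 in WT and 5.87 ± 1.58 in N1-CKO cells. Its difference had the same sign as that of the brighter probe set. Across cells it followed the brighter one weakly in WT (rho = 0.15, n = 13 cells) and more closely in N1-CKO (rho = 0.53, n = 13 cells).

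**Figure D1:**
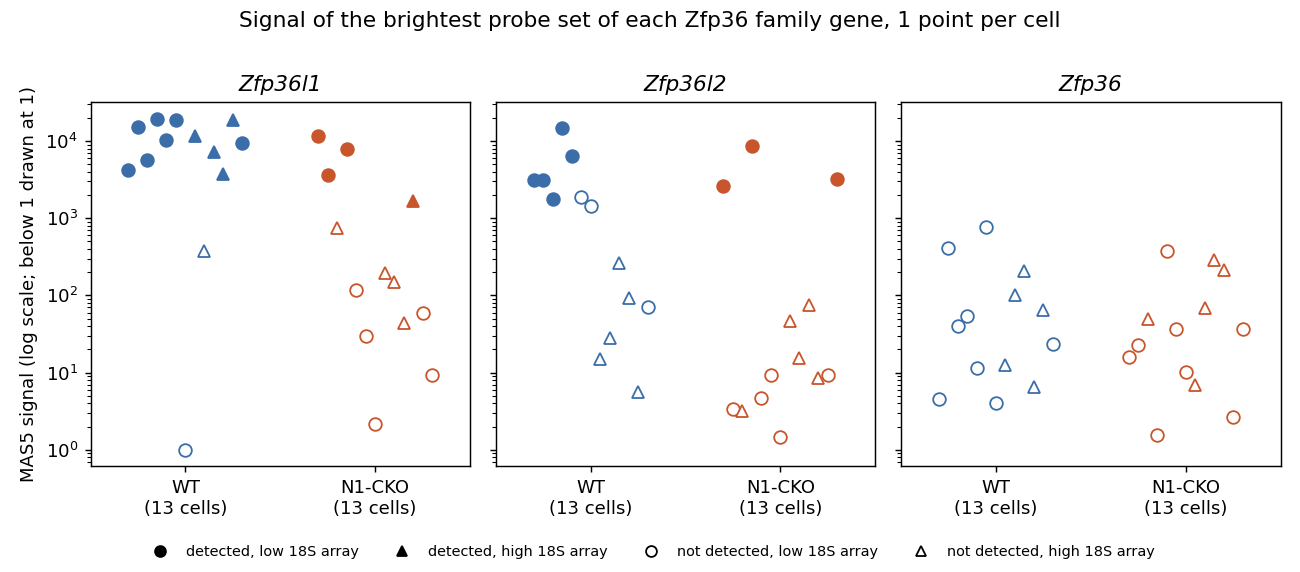
MAS5 signal (log scale) of the brightest probe set of Zfp36l1, Zfp36l2 and Zfp36 in each WT and N1-CKO cell, with 1 point per cell, filled where detected and drawn as a triangle for high 18S arrays. Detection of Zfp36l1 covered 11 WT and 4 N1-CKO cells, of the brightest Zfp36l2 probe set 5 and 3 cells, all on low 18S arrays, and of Zfp36 none.

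Zfp36l2 was found in fewer cells, and its brightest probe set only on low 18S arrays. This probe set, 1437626_at, was detected in 5 of 13 WT cells (38.5%, exact 95% interval 13.9 to 68.4) and 3 of 13 N1-CKO cells (23.1%, 5.04 to 53.8). Signals ran from 5.54 through a median of 1453 to 14983 in WT cells, and from 1.46 through a median of 9.23 to 8616 in N1-CKO cells. WT cells 1 to 5 were the detecting ones, at 3173, 3090, 1784, 14983 and 6483. WT cells 6 and 7, at 1878 and 1453, lay just under their arrays' thresholds, at the 89.0th and 89.8th percentiles. The detecting N1-CKO cells were 1, 4 and 13, at 2624, 8616 and 3267, and the other 10 were at 75.0 or less.

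Mean log2 signal of Zfp36l2 was 8.98 ± 3.30 in WT cells and 6.54 ± 3.19 in N1-CKO cells (SD over 13 cells each), a difference of -2.44, smaller than either SD. Detection and the 18S set moved together: probe set 1437626_at was detected in 0 of 5 WT and 0 of 5 N1-CKO cells of the high set, against 5 of 8 and 3 of 8 of the low set. The difference was -0.59 in the high set, where signals reached at most 263, and -3.59 in the low set. Within WT cells, the Zfp36l2 signal also followed the array's detection threshold (rho = 0.82 over 13 cells) and ran against its median signal (rho = -0.61). In N1-CKO cells these values were 0.35 and -0.17. The part of these array properties in the Zfp36l2 values was not tested.

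The other Zfp36l2 probe sets did not follow the brightest one. Probe set 1439054_at was detected in N1-CKO cell 10 alone, at 2465, on a high 18S array on which the brightest probe set was at 75.0. Its mean log2 signal was 5.84 ± 1.14 in WT cells and 6.73 ± 1.95 in N1-CKO cells, opposite in sign to 1437626_at. Probe set 1451034_at was detected in 0 of 26 cells, with means of 5.69 ± 1.30 and 6.02 ± 1.03. The group difference of Zfp36l2 therefore rests on 1 of its 3 probe sets, and was -0.41 when the 3 were averaged.

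Zfp36, which has 1 probe set, was not detected in any cell. Its probe set 1452519_a_at was below the threshold in 13 of 13 WT and 13 of 13 N1-CKO cells, and 0 of 13 allows a share of up to 24.7% in either group. Signals ran from 4.08 through a median of 40.3 to 782 in WT cells and from 1.57 through a median of 36.4 to 371 in N1-CKO cells. The groups overlapped over almost their whole range. The highest array percentiles were the 85.5th, in WT cell 6, and the 88.6th, in N1-CKO cell 5. Mean log2 signal was 5.97 ± 1.71 in WT cells and 5.73 ± 1.46 in N1-CKO cells (SD over 13 cells each), a difference of -0.24 that turned to 0.54 on high 18S arrays and to 0.07 after quantile normalization.

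Of the 22 other immediate early genes listed, 13 were detected in at least 2 of these cells and 9 in 1 or none, Atf3, Klf4 and Ccn1 among those in none. Egr1, a zinc finger transcription factor induced within minutes of stimulation, was detected in 13 of 13 WT and 12 of 13 N1-CKO cells. Fos, a subunit of the AP-1 transcription factor, was detected in 10 and 8 cells, Dusp1, a phosphatase that inactivates MAP kinases, in 5 and 6, and Btg2, an antiproliferative adaptor of the CCR4-NOT complex, in 7 and 11. The dim Zfp36 signal followed the mean of the immediate early list weakly (rho = 0.18 in WT and 0.18 in N1-CKO, n = 13 cells each). In N1-CKO cells it followed the array's median signal more closely (rho = 0.64), while in WT cells that value was 0.22. At these levels Zfp36 signals have no firm order between cells.

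Zfp36l1 and Zfp36l2 were detected together in some cells and apart in others, by their brightest probe sets. In WT, 5 cells had both Zfp36l1 and Zfp36l2, 6 had Zfp36l1 alone, 0 had Zfp36l2 alone and 2 had neither. Of the 6 with Zfp36l1 alone, cells 8, 10, 11 and 12 were on high 18S arrays, where 1437626_at was detected in no cell, and cell 6 was just under the Zfp36l2 threshold. In N1-CKO, 2 cells had both, 2 had Zfp36l1 alone, 1 (cell 13) had Zfp36l2 alone and 8 had neither. Their log2 signals were weakly related within each group (rho = 0.23 in WT and 0.18 in N1-CKO, n = 13 cells each). The dim Zfp36 signal had a rho of 0.43 with Zfp36l1 in WT cells and of -0.22 in N1-CKO cells, and of 0.07 and -0.27 with Zfp36l2.

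Zfp36l1 varied across cells with genes of DNA replication. Correlations here are Spearman's rho between the Zfp36l1 log2 signal and the mean log2 signal of a list over the 13 cells of 1 group. All points of a group share its mice and amplification method, and each pair of values shares an array. For the G1/S and DNA replication list of 22 genes, rho was 0.68 in WT cells and 0.81 in N1-CKO cells. N1-CKO cells 4, 2 and 11, which had Zfp36l1, detected 12, 10 and 5 of the 22 genes, while cell 1 detected 4. The 9 N1-CKO cells without Zfp36l1 detected 1 to 3 of them, apart from cell 3, which detected 8 and whose Zfp36l1 signal of 752 was the highest below the threshold.

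The 7 genes of that list detected in at least 3 cells of each group all had a positive mean rho with Zfp36l1. The median of the 3797 other genes so detected was also above 0, at 0.04, and 4 of the 7 reached their 95th percentile of 0.41. Cdt1, which licenses replication origins, had a mean rho of 0.55 over the groups, and Mcm7, Mcm2 and Mcm4, subunits of the replicative helicase, had 0.54, 0.53 and 0.43. Mcm5, another helicase subunit, had 0.30 and Pcna, the sliding clamp of DNA polymerase, had 0.26. Mcm2 was detected in all 4 N1-CKO cells with Zfp36l1 and in 2 of the 9 without it. In WT cells it was detected in 4 of 11 with Zfp36l1 and 1 of 2 without it, and its rho was 0.26 there against 0.80 in N1-CKO cells. Mcm7 was detected in the same 4 N1-CKO cells and in 3 of the 9, and in 7 of 11 and 1 of 2 WT cells. Neither helicase gene shared the group difference of Zfp36l1: Mcm2 differed by 0.56 and Mcm7 by 0.55, both higher in N1-CKO cells, although Mcm7 was at -0.08 in the low 18S set. Over the 19 genes of the list detected in at least 2 cells the median difference was -1.56, with 14 lower and 5 higher. Of all 8280 genes so detected, 51.5% were lower.

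Genes of G2 and mitosis were related to Zfp36l1 less evenly. For the list of 23 such genes, rho was 0.34 in WT cells and 0.63 in N1-CKO cells. All 23 had a lower mean in N1-CKO cells, against 51.5% of all 8280 genes detected in at least 2 cells. The median difference of the 23 was -3.17. Birc5, the survivin subunit of the chromosomal passenger complex, had a mean rho of 0.44. Top2a, the topoisomerase that untangles chromosomes, had 0.38, and Tpx2, a spindle assembly factor, had 0.27. Ube2c, a ubiquitin-conjugating enzyme of mitotic exit, had -0.07 and Ckap2, a spindle-associated protein, had -0.15. On high 18S arrays the group difference was -0.61 for Top2a, -0.53 for Tpx2 and -0.99 for Birc5. On low 18S arrays these were -5.22, -5.46 and -4.01. The 2 sets were closer for Ube2c (-3.15 and -4.40) and Ckap2 (-0.95 and -1.06). WT cell 12, with Zfp36l1 at 18885, detected 14 of 22 G1/S genes and 2 of 23 G2/M genes. N1-CKO cell 4 showed the same combination, with Zfp36l1 at 7823, 12 G1/S genes and 1 G2/M gene. WT cell 8 was the reverse, with Zfp36l1 at 11799, 4 G1/S genes and 18 G2/M genes. A bright Zfp36l1 signal was thus present in cells of either profile.

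**Figure D2:**
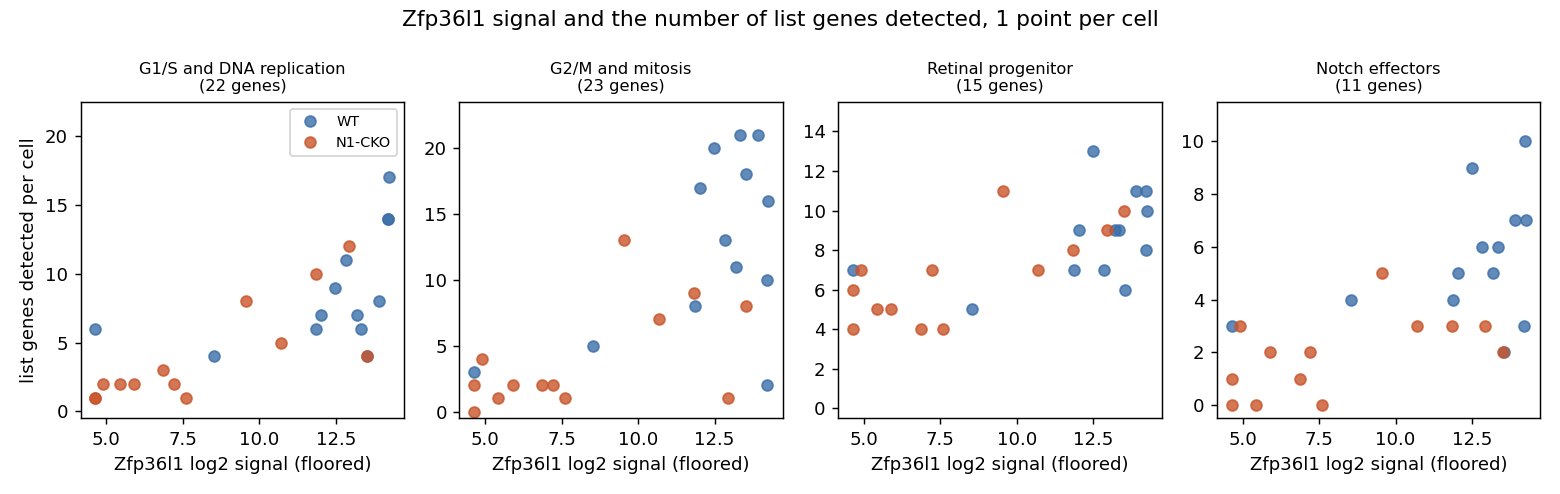
Number of detected genes of 4 lists (vertical axes) against the log2 signal of Zfp36l1 (horizontal axes, floored at 4.65) in the 13 WT and 13 N1-CKO cells, with 1 point per cell. N1-CKO cells without detected Zfp36l1 had 1 to 3 of 22 G1/S genes, apart from cell 3 with 8, while cells with a bright signal ranged from 1 to 21 of 23 G2/M genes.

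Retinal progenitor genes and Notch effectors also varied with Zfp36l1. For the list of 15 progenitor genes, rho was 0.48 in WT cells and 0.73 in N1-CKO cells. Fgf15, a progenitor growth factor, had a mean rho of 0.42, Sox2, a transcription factor that maintains progenitors, had 0.40, and Lhx2, a LIM homeodomain factor of early eye and progenitor development, had 0.32. The groups were unlike for Sox2, at 0.77 in WT and 0.03 in N1-CKO cells, and for Lhx2, at 0.09 and 0.56. The homeodomain factors Six3 and Six6, which many retinal neurons keep, had -0.03 and -0.35. For the 11 Notch effectors, rho was 0.52 in WT cells and 0.59 in N1-CKO cells. Hes5, a repressor induced by Notch, had a mean rho of 0.48, Id1, an inhibitor of bHLH factors, had 0.34, and Dtx4, of the Deltex family of Notch regulators, had 0.32. Id3, a relative of Id1, had 0.24 and Rbpj had -0.09. Median differences were -1.30 over 14 progenitor genes and -2.10 over 11 Notch effectors. Some members differed little on high 18S arrays: Hes5 by -0.04 (-3.17 on low ones), Dtx4 by -0.52 (-4.54) and Fgf15 by 0.01 (-3.10). Others were lower on both, Lhx2 at -3.58 and -4.06, Id1 at -2.12 and -4.38 and Id3 at -3.19 and -6.16. Rbpj was lower mainly on high 18S arrays, at -2.82 against -0.90.

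Müller glia genes, many of which progenitors share, had a rho with Zfp36l1 of 0.58 in WT and 0.75 in N1-CKO cells. Immediate early genes had 0.43 and 0.70, above the G2/M list in each group. Of the 8 of them detected in at least 3 cells of each group, 6 had a mean rho above 0. The median of the 3797 other genes so detected was also above 0, at 0.04. Of the 8, only 1, Fos at 0.58, reached their 95th percentile of 0.41. Photoreceptor genes had -0.23 and 0.14, and neuron genes had -0.08 and 0.15. Markers of microglia, astrocytes, retinal pigment epithelium and red blood cells were nearly absent, with at most 1 gene of each list detected in any cell. Of the 8 endothelial genes, 1 was detected in at least 2 cells, and it differed by -2.38. The endothelial genes detected per cell had a median of 1 in WT and 0 in N1-CKO cells. That count had a rho with Zfp36l1 of 0.67 in WT and 0.07 in N1-CKO cells. Zfp36l1 itself had a rho with the array's detection threshold of 0.36 in WT and 0.48 in N1-CKO cells, and with the Gapdh ratio of -0.57 and -0.26. The part of these array properties in the list correlations was not tested.

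The WT relations rested largely on 2 cells. Without WT cells 7 and 9, farthest from the median Zfp36l1 signal, rho over the 11 remaining WT cells was 0.53 for G1/S genes and 0.20 for progenitor genes. It was 0.26 for Notch effectors, 0.30 for Müller glia genes, 0.27 for immediate early genes and -0.01 for G2/M genes. WT cells 7 and 9 were the only WT cells without detected Zfp36l1, whereas the N1-CKO cells farthest from their median, 1 and 4, were among the 4 with it. The cells left out were thus not alike, and the size of the change does not compare the groups. Without N1-CKO cells 1 and 4, rho over 11 cells was 0.78 for G1/S genes, 0.64 for progenitor genes and 0.64 for Notch effectors. It was 0.72 for Müller glia genes, 0.56 for immediate early genes and 0.71 for G2/M genes.

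Zfp36l2 had a different pattern of relations. In WT cells its rho was 0.70 with Notch effectors, 0.54 with G2/M genes, 0.52 with progenitor genes and 0.30 with G1/S genes. In N1-CKO cells the same values were -0.24, -0.14, -0.10 and 0.03. The median N1-CKO cell had Zfp36l2 at the floor and 3 of 13 detected it, so these values order few cells. Its rho with the mean signal of the microglia list, whose genes were almost never detected, was -0.84 in WT cells and -0.36 in N1-CKO cells. Neither the difference between the groups nor the part of array background in these values was tested.

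The genes most like Zfp36l1 were found by the mean of the Pearson correlations within WT and within N1-CKO cells, over the 3797 other genes detected in at least 3 cells of each group. The median gene had a mean r of 0.09 and the 99th percentile was 0.60. Mki67, which encodes the proliferation marker Ki-67, came first at 0.76 (0.89 in WT and 0.63 in N1-CKO). Dusp16, a phosphatase of MAP kinases, followed at 0.75, and Arf6, a small GTPase of endosomal and membrane traffic, also had 0.75. Lhx2 had 0.70, Dapl1 had 0.70, Kpna2, an importin of nuclear transport, had 0.69, Yy1, a zinc finger transcription factor, had 0.69 and Fam120a had 0.69. All 8 were lower on average in N1-CKO cells, from -1.01 for Dapl1 to -4.22 for Mki67.

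Mki67 also matched Zfp36l1 cell by cell. Both were detected in WT cells 1 to 6, 8 and 10 to 13 and both were missing in WT cells 7 and 9, so their states were the same in 13 of 13 WT cells. In N1-CKO cells they shared cells 1, 2 and 11, while cell 3 had Mki67 alone and cell 4 had Zfp36l1 alone. The 24 of 26 matching cells were the most for any of the 3797 genes, of which the median matched in 14, and 8 genes matched in all 13 WT cells. Among the 11 WT cells that had both, r between their signals was -0.15, against 0.83 in N1-CKO cells without cells 1 and 4. In WT without cells 7 and 9, r was 0.67 for Arf6 and 0.72 for Fam120a, but -0.12 for Dusp16, 0.05 for Lhx2, 0.08 for Kpna2, 0.21 for Yy1 and 0.30 for Dapl1. The likeness of Mki67 and Zfp36l1 among WT cells was thus one of presence and absence.

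**Figure D3:**
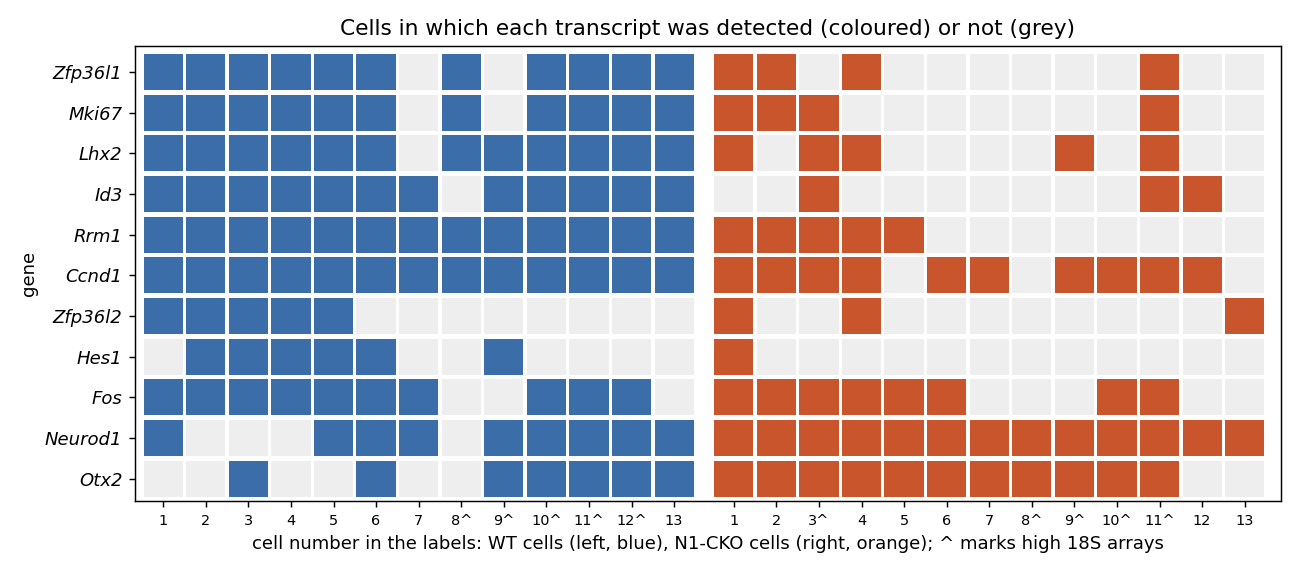
Detection of Zfp36l1, Zfp36l2 and 9 other genes (rows) in each of the 13 WT cells and 13 N1-CKO cells (columns, numbered as in the labels), coloured where detected and grey where not, with a caret for high 18S arrays. The Zfp36l1 and Mki67 rows are the same in all 13 WT cells and differ in N1-CKO cells 3 and 4.

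Other genes shared fewer states with Zfp36l1. Lhx2 matched it in 12 WT and 10 N1-CKO cells, Rrm1, a subunit of ribonucleotide reductase, in 11 and 10, and Sox2 in 11 and 8. Hes1, the Notch-induced repressor, matched it in 6 WT and 10 N1-CKO cells, since 6 WT cells had Zfp36l1 without Hes1. Neurod1, a bHLH factor of differentiating photoreceptors and amacrine cells, was detected in all 4 N1-CKO cells with Zfp36l1 and in all 9 without it. Otx2, a homeodomain factor of photoreceptor and bipolar cells, was likewise detected in all 4 N1-CKO cells with Zfp36l1, and in 7 of the other 9. In WT cells, Neurod1 was detected in 7 of the 11 with Zfp36l1 and in the 2 without it, and Otx2 in 6 and 1. Cells of either group with Zfp36l1 could thus carry transcripts of differentiating cells, and Neurod1 did not separate N1-CKO cells by Zfp36l1.

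The genes most like Zfp36l2 were found in the same way. Usp42, a deubiquitinase, had a mean within-group r of 0.79, Limch1, a regulator of non-muscle myosin, had 0.74, and Chmp4b, a subunit of the ESCRT-III membrane scission complex, had 0.74. 1600020E01Rik had 0.68, Ythdf1, a reader of methylated adenosine in mRNA, had 0.66, Dpp3, a peptidase, had 0.65, Smox, which oxidises spermine, had 0.65, and Psmc3, an ATPase of the proteasome, had 0.64. The 99th percentile of r among 3797 genes was 0.55. Usp42 matched Zfp36l2 in detection in 12 WT and 11 N1-CKO cells. Without N1-CKO cells 4 and 13, r in N1-CKO cells fell from 0.71 to 0.43 for Usp42 and from 0.58 to 0.41 for Psmc3. It was highest for 1600020E01Rik, at 0.72. Without WT cells 8 and 12, r in WT cells ran from 0.46 for 1600020E01Rik to 0.83 for Usp42. The Zfp36l2 signal followed the detection threshold in WT cells (rho = 0.82), and the part of array properties in these correlations was not tested. Zfp36 was detected in too few cells to be compared in this way.

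The machinery that Zfp36 family proteins recruit differed in both directions, gene by gene. Of the CCR4-NOT deadenylase genes, 13 of 14 were detected in at least 2 cells, 6 with a lower and 7 with a higher mean in N1-CKO cells. Their median difference was 0.01. Cnot9, a subunit that takes part in binding recruited regulators, was the only one past -2, at -2.72 (7 of 13 WT and 2 of 13 N1-CKO cells). Cnot8, a catalytic deadenylase subunit, differed by 1.90, Btg2 by 1.68, and Cnot3, a scaffold-bound subunit, by 1.38. Of the other deadenylase, decapping and 5' decay genes, 16 of 19 were detected in at least 2 cells, with a median of -0.29 and none past 2 in either direction. Dcp2, the decapping enzyme, differed by 1.62 and its activator Dcp1a by 1.27. The Dcp2 difference was 3.92 on high and 0.18 on low 18S arrays, and that of Dcp1a was 0.02 and 2.05. Parn, a poly-A ribonuclease, differed by -1.52, and Pabpc1, the cytoplasmic poly-A binding protein, by -1.21.

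The RNA exosome, which degrades deadenylated mRNA from its 3' end, had 9 of 12 genes detected in at least 2 cells and a median difference of -0.47. Its ring subunits Exosc9 and Exosc5 differed by -3.02 and -2.47, the nuclease subunit Dis3 by -1.45, and Exosc1, a cap subunit, by 1.39. The Exosc9 difference was -0.33 on high 18S arrays and -4.70 on low ones, and that of Exosc1 was 4.37 and -0.47. Exosc9 had 11 WT and 4 N1-CKO cells with detection, as many as Zfp36l1, but with a mean rho with Zfp36l1 of 0.07.

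Among other proteins that bind AU-rich elements, 13 of 16 were detected in at least 2 cells, 4 lower and 9 higher in the N1-CKO group. Their median was 0.39, and 51.5% of all 8280 genes were lower. Celf2, a regulator of splicing and translation, differed by -2.45, and Rc3h1, the Roquin protein that also recruits CCR4-NOT, by -1.31. Elavl1 and Elavl3, Hu proteins that stabilise many AU-rich mRNAs, were higher by 1.30 and 1.94. Elavl3, the neuronal form, was detected in 4 WT cells and 7 N1-CKO cells, and Elavl1 in 10 and 13. Of the kinases, phosphatases and adaptors that act on Zfp36 family proteins, 13 of 15 were detected in at least 2 cells, with a median of -0.26 and none past 2. Mapkapk2, the kinase that phosphorylates tristetraprolin, differed by 1.34, Akt1, a kinase reported to act on Zfp36l1, by -1.06, and the 14-3-3 adaptors Ywhah and Ywhab by -1.54 and -1.27. The direction turned between array sets for Mapkapk2, at -0.21 on high and 2.31 on low 18S arrays, and for Akt1, at -3.57 and 0.51.

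**Figure D4:**
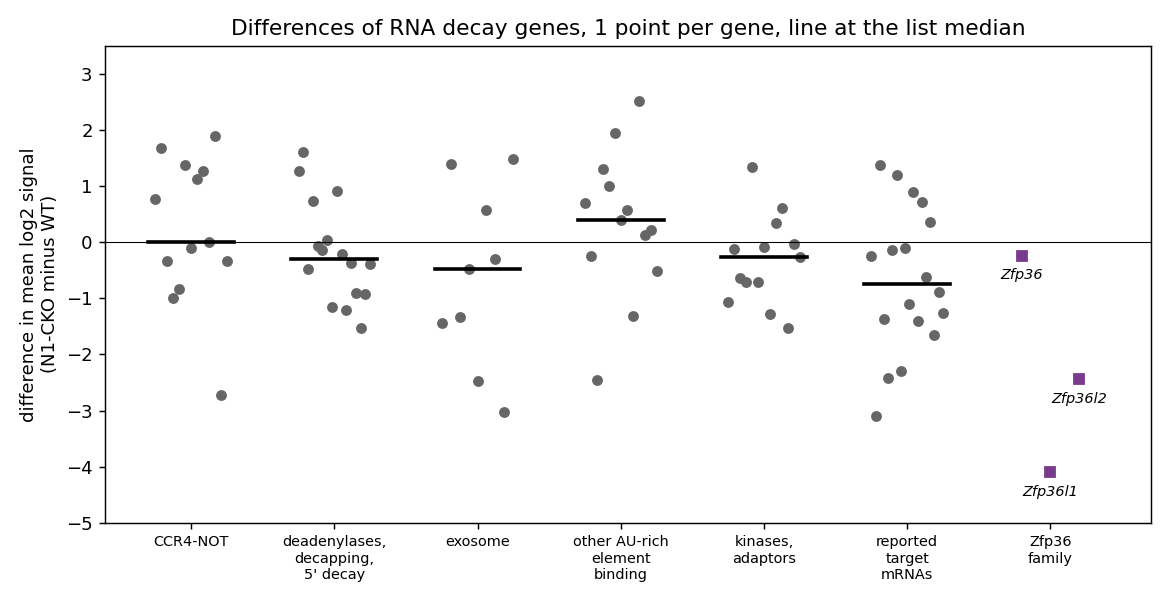
Difference in mean log2 signal between N1-CKO and WT cells (vertical axis) for genes of 6 RNA decay lists detected in at least 2 cells, with 1 point per gene and a line at each list's median, beside the 3 Zfp36 family genes (squares). List medians lay between -0.75 and 0.39, and Zfp36l1 lay at -4.10, below every listed gene.

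Transcripts reported as bound or destabilised by Zfp36 family proteins were not higher as a group in N1-CKO cells. Of 31 such genes, 18 were detected in at least 2 cells, 13 lower and 5 higher, with a median difference of -0.75 and none higher by 2 or more. Over all 8280 genes, 51.5% were lower. The G1 cyclin Ccnd1 differed by -3.10, its kinase partner Cdk6 by -2.42 and the S phase factor E2f1 by -2.30. Of these, Ccnd1 also stands in the progenitor list and E2f1 in the G1/S list. Ccnd1 was detected in 13 WT cells and 10 N1-CKO cells. Within N1-CKO cells it was present in all 4 cells with Zfp36l1 and in 6 of the 9 without it. The mean signal of the list varied with Zfp36l1 (rho = 0.40 in WT and 0.46 in N1-CKO, n = 13 cells each). Notch1, a reported target and the floxed gene itself, was detected in 10 WT cells and 8 N1-CKO cells and differed by -1.65. The labels do not say whether its probe set lies within the deleted part of the gene, so that value does not check the deletion.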

How the data were processed

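MAS5 intensity values on a linear scale were deposited by the authors for 26 cells, MAS5 being named in the submitters' processing notes. No version of it is named there. Each array's mean, after a 2% trim at both ends, was 500.0, so the values do not show how much RNA a cell held. The platform annotation gave 1 symbol for 34945 of 45101 probe sets, several for 932 and none for 9224, controls included. Signals were floored at 25.02 and log2 transformed, and the brightest probe set by mean represented a gene. Array number limits precision. Exact binomial (Clopper-Pearson) intervals cover 95% and counting of cells only.

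Python 3.11.15, pandas 2.3.3 and scipy 1.17.1 were used, and the code was tested on simulated data. Groups came from the sample titles. The genes and 19 lists were chosen with earlier results of these data known. Named were the members, the 8 most similar genes, up to 4 list genes with the largest differences among those detected in at least 4 cells, and up to 4 with the highest and 2 with the lowest rho. Genes shown in the detection plot and the cells singled out were chosen after their values were seen. Alternatives were other floors, detection percentiles, probe set rules, quantile normalization, array subsets and leaving out each cell. Of 271 list genes, 259 were measured, and the other 12 were not analysed here.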

Additional observations from a re-analysis of the deposited data

Results flagged for a closer look

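Zfp36l2 probe set 1439054_at, which the comparison of the groups does not use, was detected in N1-CKO cell 10 at a signal of 2465, above its highest WT signal of 211. The brightest Zfp36l2 probe set was at 75.0 in that cell, and the third probe set was detected in 0 of 26 cells.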

How the results depend on the processing

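The Zfp36l1 difference kept its sign and moved by less than 1 SD under all alternatives run, from -5.98 between medians over cells to -2.86 with averaged probe sets, and from -4.73 to -3.81 when each cell was left out in turn. The Zfp36l2 difference was -5.86 between medians over cells, -3.56 with no floor, -1.59 with a floor of 100 and -0.41 with averaged probe sets, and ran from -2.98 to -2.03 without single cells. The Zfp36 difference turned to 0.074 after quantile normalization and 0.54 in the high 18S set, and ran from -0.48 to 0.062 without single cells. With detection at the 80th percentile, the counts were 3 WT and 2 N1-CKO cells for Zfp36 and 7 N1-CKO cells for Zfp36l1. At the 95th percentile, Zfp36l1 kept 2 N1-CKO cells, and Zfp36l2 kept 2 WT cells and 1 N1-CKO cell. The mean rho of Zfp36 and Zfp36l2, -0.10, became 0.038 after quantile normalization and 0.11 when a gene's probe sets were averaged. That of Zfp36l1 and Zfp36l2, 0.20, became 0.34 with a floor of 100, 0.29 after quantile normalization, -0.051 with averaged probe sets, and 0.31 when centred on group and 18S set, an alternative chosen after seeing the data. Zfp36l1 with Notch effectors, 0.55, became 0.49 at a Gapdh ratio of 3 or less and 0.62 when centred. Zfp36l1 with G1/S genes, 0.75, became 0.56 with averaged probe sets. It was above that with progenitor genes (0.60) in the values reported, but below it as a Pearson r (0.69 against 0.71) and when centred (0.68 against 0.75). Zfp36 with immediate early genes, 0.18, became 0.069 as a Pearson r, 0.035 with a floor of 100, 0.060 after quantile normalization, 0.28 with averaged probe sets, 0.23 at a Gapdh ratio of 3 or less and 0.0026 when centred. The causes were not tested. No paired analysis was possible because the result comes from no test and cell numbers pair nothing. Signals near background limit Zfp36 and the dim probe sets, which have no order between cells.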
